A study of Mus musculus with 6 samples.

Results

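The genes described here are the zinc finger protein genes, symbols beginning with Zfp and a digit, that mouse hepatic stellate cells expressed at a mean of 20 CPM or more. CPM is a gene's count divided by the column total, times 1000000. The genes were chosen by their symbol, the protein-coding label of the deposited table and this measured mean over all 6 libraries, whichever way a gene moved. Zfp36, Zfp36l1 and Zfp36l2, which encode RNA-binding proteins of another finger type, were left out. Of 24940 genes in the table, 383 met the name rule and 138 also reached 20 CPM; 12 of the 383 had no count in any library. Just inside the threshold lay Zfp943 at 20.4, Zfp955a at 20.5 and Zfp637 at 20.6 CPM, and just outside lay Zfp65 at 19.1, Zfp74 at 18.4 and Zfp512b at 18.4 CPM. All 138 genes passed the filter on low counts and were tested. By group, 131 averaged at least 20 CPM in both, 2 were under it in DMSO and 5 were under it with forskolin; Zfp955a, under it with forskolin, was a member only through its DMSO level.

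The libraries came from primary hepatic stellate cells of wild-type female mice, strain C57BL6/JBomTac in the labels. These perisinusoidal cells of the liver store vitamin A and were kept for 2 days after isolation. They then received 5 µM forskolin, which activates adenylyl cyclase and so raises cAMP, or the same volume of the solvent DMSO, for 3 h (3 libraries each, replicates A, B and C; A, B and C values are always given in that order). The labels do not say whether replicates are separate animals or cultures, so p-values measure the spread between these libraries only, which may be technical.

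Most Zfp genes encode proteins whose tandem C2H2 fingers each hold a zinc ion between cysteines and histidines and read a few bases of DNA. Many carry an amino-terminal KRAB box, which binds the corepressor Trim28; Trim28 in turn brings the histone methyltransferase Setdb1, HP1 proteins and the NuRD complex, and so silences transposable elements and some genes. KRAB zinc finger genes have multiplied in clusters in each mammalian lineage, so neighbours are often near copies. Others, with no KRAB box, act as transcription activators, as RNA-binding proteins, in the spindle or in translation.

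Promoter sequence is shown first for Zfp955a, the member that fell most. It encodes a KRAB protein with 10 fingers and lies at chr17:33239507-33255145 on the minus strand (mm10). Its neighbour Zfp955b, at chr17:33289544-33304689 on the plus strand, faces the other way, and all 300 bases around the 2 starts (250 before and 50 after; 0 bases differed) were identical in the RefSeq promoter table for GRCm38.p6 (mm10). The 250 bases before the start, read 5′ to 3′, were, for both genes:
Zfp955a (chr17:33255146-33255395, minus strand): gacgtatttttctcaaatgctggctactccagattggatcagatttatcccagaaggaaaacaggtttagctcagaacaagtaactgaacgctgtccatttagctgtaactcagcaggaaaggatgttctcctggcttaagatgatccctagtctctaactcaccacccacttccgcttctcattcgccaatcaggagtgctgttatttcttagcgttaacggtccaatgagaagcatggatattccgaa

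A second set of sequences bears on cAMP, since the factor CREB binds the palindrome TGACGTCA. Promoters were in the table for 111 of the 138 genes. TGACGTCA stood within 250 bases before the start, on either strand, in 5 of 111 (4.50%), against 508 of 32851 promoters of the table (1.55%). Its shorter core TGACG, which every TGACGTCA also contains, stood in 35 of 111 (31.5%), against 5836 (17.8%). Promoters of the table were counted without regard to gene type or expression, while each member was counted at the promoter nearest its start. The shares are therefore not from matched sets. A match is a string of letters, not a bound site, and no match says only that these letters are not in this window. The 5 genes with TGACGTCA were named after their values were seen. Each is shown with up to 20 bases on either side, ending at the base before the start where that is closer, and with the motif in capitals:
Zfp266 (chr9:20521420-20521456, minus strand): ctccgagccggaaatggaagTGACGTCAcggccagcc
Zfp335 (chr2:164911789-164911836, minus strand): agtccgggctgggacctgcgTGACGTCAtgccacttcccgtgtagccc
Zfp426 (chr9:20492747-20492788, minus strand): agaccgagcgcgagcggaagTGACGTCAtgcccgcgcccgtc
Zfp874a (chr13:67451625-67451654, minus strand): aaatgtagtctgcagcacggTGACGTCAca
Zfp874b (chr13:67484254-67484285, minus strand): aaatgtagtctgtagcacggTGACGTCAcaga

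None of the 5 genes with TGACGTCA passed the test. Their fitted log2 changes, forskolin over DMSO, were 0.27 for Zfp266, 0.03 for Zfp335, 0.18 for Zfp426, 0.10 for Zfp874a and -0.17 for Zfp874b. Zfp266, a KRAB gene, measured 41.4, 38.3 and 24.7 CPM in DMSO and 42.7, 42.8 and 42.4 CPM with forskolin (adjusted p = 0.720, edgeR). Its groups did not overlap, with DMSO C alone well below the rest. Among the 35 genes with TGACG, 0 passed the test (by edgeR; 2 higher and 3 lower had an unadjusted p under 0.05) and 19 were below 0, with a median of -0.07. Among the 76 without it, 1 passed and 57 were below 0, with a median of -0.14. Without DMSO C the medians were 0.00 with TGACG and -0.16 without it, and without both C libraries -0.01 and -0.13. Without DMSO B they lay closer together, at -0.05 and -0.10. The difference between them was not tested. The Zfp955a promoter printed above holds neither motif.

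As a group, these genes showed few calls and a small downward displacement. Tested with edgeR's quasi-likelihood method, with Benjamini-Hochberg adjustment over all 12233 tested genes and a threshold of 0.05, 1 of 138 rose, Zfp703, and 2 fell, Zfp955a and Zfp608. That is 0.725% higher and 1.45% lower, where 2.22% of all tested genes were called higher and 0.572% lower. At an unadjusted p under 0.05 there were 6 higher and 17 lower, against a background of 6.81% and 5.26%. Fitted changes were below 0 for 96 of 138 genes (69.6%; 49.2% of all tested genes). Their median was -0.13, with quartiles of -0.29 and 0.08, beside a median of 0.00 over all tested genes. Among the 7313 other protein-coding genes of at least 20 CPM the median was 0.01, and 47.7% were below 0. The displacement was small for single genes: 127 of 138 lay within 0.5 of 0 on the log2 scale, and 2 lay at 1 or beyond.

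**Figure D1:**
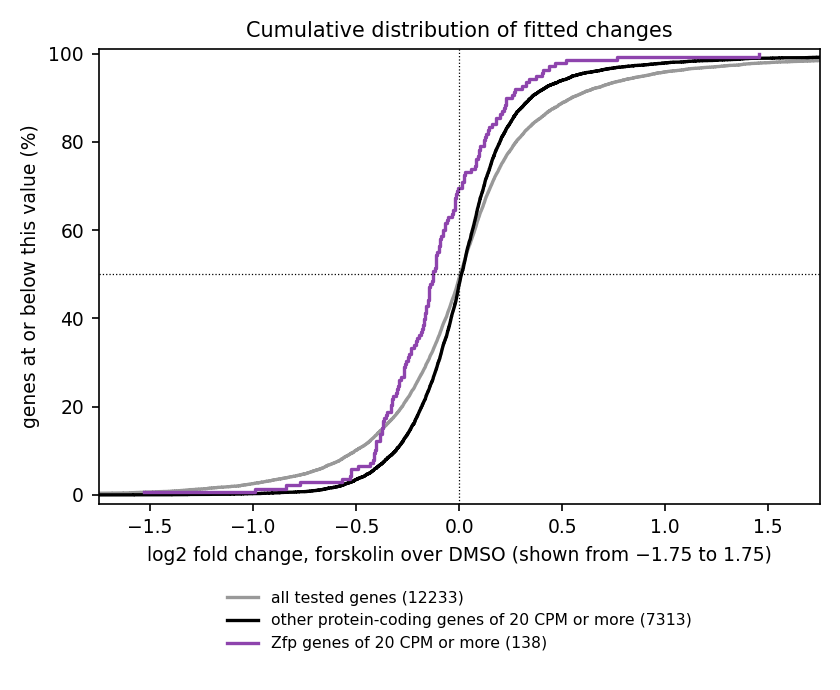
Cumulative share of genes (y axis, %) at or below each fitted log2 fold change, forskolin over DMSO (x axis), for the 138 Zfp genes, all 12233 tested genes and the 7313 other protein-coding genes of at least 20 CPM. The Zfp curve lies to the left around 0, where it stands at 69.6% against 49.2% and 47.7%.

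The cumulative plot shows that displacement around 0, where most of the members lie. All 138 members together summed to 8546, 8889 and 9074 CPM in DMSO and 8511, 8633 and 8727 CPM with forskolin, on the TMM-scaled library sizes that stand behind every per-library CPM given here except the markers. The groups overlapped: forskolin B and C lay above DMSO A. That overlap depended on Zfp703, the most abundant member, which was left out after its values were seen. Without it the sums were 8332, 8674 and 8816 CPM in DMSO and 7896, 8027 and 8068 CPM with forskolin, without overlap. In bulk RNA, less RNA per cell and fewer cells of a type cannot be told apart. Per library, the median deviation of the 138 genes from their own mean log2 level was 0.03, 0.07 and 0.08 in DMSO and -0.06, -0.05 and -0.03 with forskolin, while that of all tested genes stayed between -0.02 and 0.04.

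Groups did not overlap for 9 members higher and 21 members lower with forskolin; over all tested genes this held for 10.7% and 9.46%. As shares of the 138, these counts are 6.52% and 15.2%. The 21 included Zfp280b, Zfp280c and Zfp280d, the pair Zfp608 and Zfp609, and the activator Zfp143. Genes of like name did not always go together: Zfp518b was among the 21 (log2 change of -0.53), and Zfp518a was not (0.01). Both were named after their values were seen. For these genes, replicates of the same group had a median SD of log2 CPM of 0.178 in DMSO and 0.190 with forskolin. Over all tested genes it was 0.242 and 0.252. The sets were not matched for level: members were chosen at 20 CPM or more, and the tested genes include lower ones.

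**Figure D2:**
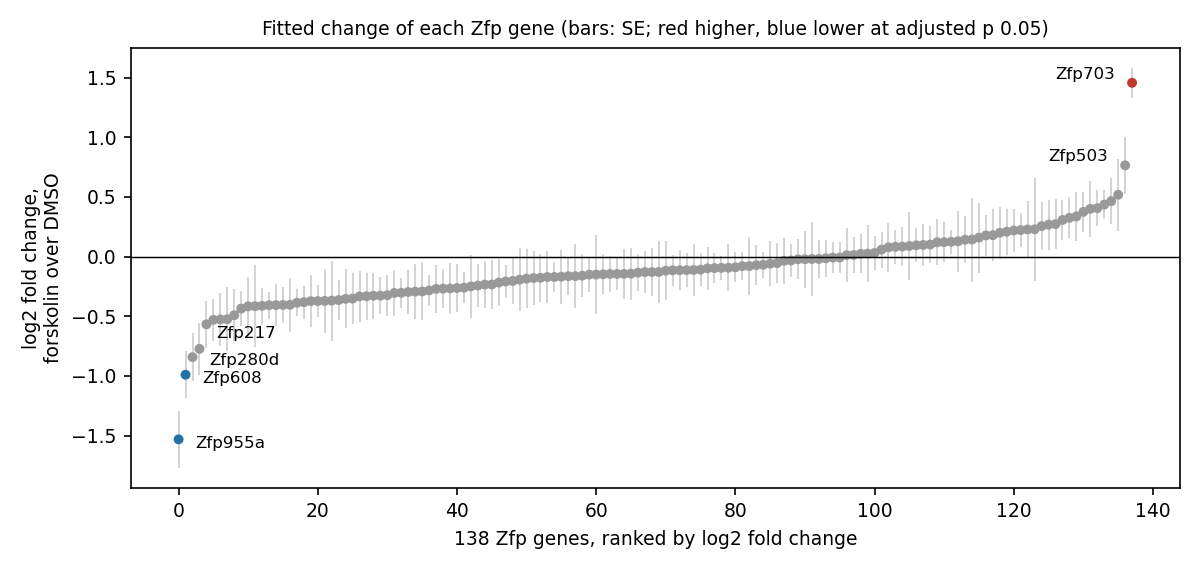
Fitted log2 fold change, forskolin over DMSO (y axis), of the 138 Zfp genes ranked from lowest to highest (x axis); points are fitted values, bars are SE, red marks the gene called higher and blue the genes called lower. Zfp703 at 1.46 and Zfp955a at -1.53 stand at the ends, and 127 genes lie within 0.5 of 0.

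The number of calls depended on the C libraries, whose totals (3025990 and 2770628 counts) were below those of the other libraries (6753746 to 10607997), so that a typical member had 138 and 106 counts there and 309 to 464 elsewhere. With both C libraries left out, 5 members were called higher and 14 lower by edgeR, while calls over all tested genes went to 5.86% and 3.90%. The 4 added rises were Zfp131, Zfp503, Zfp516 and Zfp574, with Zfp516 at 0.84 (adjusted p = 0.0186). The 12 added falls were Zfp207, Zfp217, Zfp280d, Zfp281, Zfp329, Zfp407, Zfp609, Zfp638, Zfp639, Zfp715, Zfp740 and Zfp871; those not described below were named after their values were seen. Without forskolin C alone there were 2 higher and 5 lower, beside 2.89% and 0.878% of all tested genes, and without DMSO C 2 higher and 3 lower, beside 1.95% and 0.475%. Without DMSO A, DMSO B, forskolin A or forskolin B there was 1 of each, Zfp703 and Zfp955a, while all-gene shares were 1.30% to 1.44% higher and 0.169% to 0.217% lower. The median stayed below 0 in every alternative, from -0.16 to -0.09.

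The ranked plot has 1 gene at its upper end. Zfp703, at chr8:26977336-26981462 (mm10), encodes a corepressor of the NET family that binds Groucho/TLE proteins and is known as an oncogene of luminal breast cancer. It measured 213, 215 and 258 CPM in DMSO and 615, 606 and 658 CPM with forskolin. Every forskolin library was above every DMSO library, by a margin far beyond the spread within groups. The means were 229 ± 25.5 and 627 ± 27.9 CPM (SD, n = 3), a 2.74-fold rise, with a log2 change of 1.46 ± 0.13 (SE; edgeR adjusted p = 1.21e-04). The call held in all 15 alternatives, with changes of 1.41 to 1.55.

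Zfp703 was also the most abundant member, at 424 CPM on average (unscaled), and the most abundant per length, at 130 CPM per kb of transcript. The median member had 11.3 CPM per kb. Next per length came Zfp207 at 82.5, Zfp622 at 60.3, Zfp146 at 56.7, Zfp91 at 46.8 and Zfp664 at 45.5 CPM per kb. Of its 50-base transcript windows, 11.7% also occur in transcripts of Gm45371, so a share of reads may be split with that gene; how the authors' counting handled such reads is not given in the sources used here.

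Zfp503, the paralog of Zfp703 and a regulator of striatal and limb development, did not pass the test. It measured 31.2, 39.9 and 66.4 CPM in DMSO and 76.2, 77.3 and 74.6 CPM with forskolin. The groups did not overlap, but DMSO C lay much closer to the forskolin libraries than DMSO A and B did. Its log2 change was 0.76 ± 0.24 (SE; edgeR adjusted p = 0.178). Without DMSO C it was 1.09 (adjusted p = 0.00758), and without both C libraries 1.09 (adjusted p = 1.62e-05). The noncoding gene A330001L22Rik overlaps Zfp503, and the library kit does not mark strand. Of the Zfp503 transcript windows, however, 0% were found in transcripts of another gene. Whether reads of the pair were mixed was not tested.

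**Figure D3:**
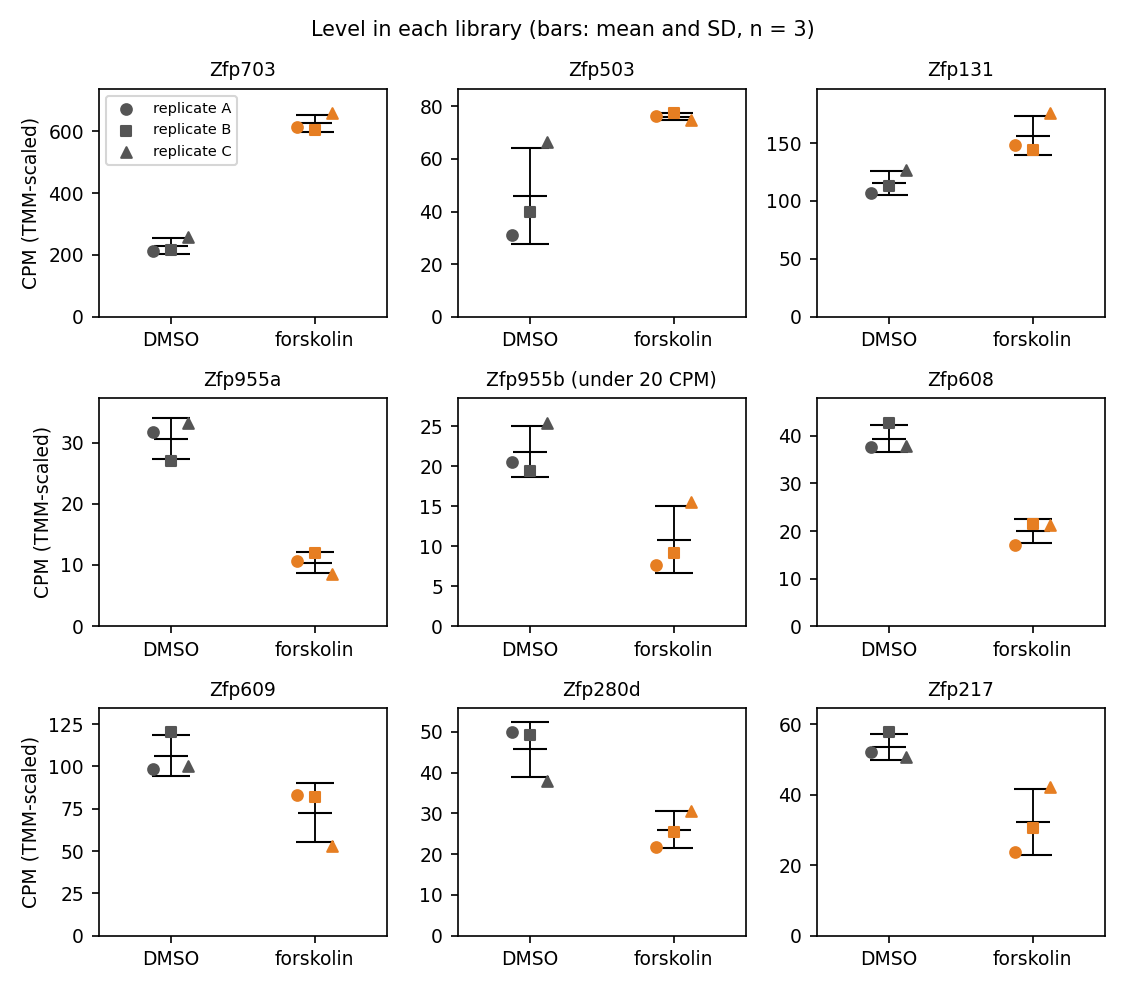
Level of 9 genes in each library (y axis, TMM-scaled CPM, from 0) for DMSO and forskolin; symbols are replicates A, B and C, bars are mean and SD (n = 3). The 3 forskolin values of Zfp703 sit at 606 to 658 CPM above 213 to 258 CPM in DMSO, and those of Zfp955a sit at 8.55 to 11.9 below 26.9 to 33.2 CPM.

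At the lower end stood Zfp955a. Its levels were 31.8, 26.9 and 33.2 CPM in DMSO and 10.6, 11.9 and 8.55 CPM with forskolin. All DMSO libraries were well above all forskolin libraries. The means were 30.6 ± 3.29 and 10.4 ± 1.69 CPM (SD, n = 3), so that forskolin cells held 0.346 of the DMSO level. The log2 change was -1.53 ± 0.24 (SE; edgeR adjusted p = 0.00517). It was called in all 15 alternatives on its own counts, at -1.64 to -1.38, with the adjusted p at most 0.0424. The deposited counts behind it were 217.5, 266.0 and 97.5 in DMSO and 102.0, 128.5 and 21.5 with forskolin, so forskolin C carried the fewest.

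Zfp955a could share reads with its near copy. Of its 50-base transcript windows, 52.0% also occur in Zfp955b, which encodes a KRAB protein with 10 fingers as well and lay under the threshold at 16.3 CPM. Zfp955b measured 20.6, 19.4 and 25.4 CPM in DMSO and 7.71, 9.11 and 15.5 CPM with forskolin. Its groups did not overlap either, with forskolin C the nearest to DMSO, and its log2 change was -1.07 ± 0.32 (SE; edgeR adjusted p = 0.145). The counts of the pair were then added, an alternative chosen after seeing the data. The sum was 52.2, 46.4 and 58.3 CPM in DMSO and 18.3, 21.0 and 24.1 CPM with forskolin, a log2 change of -1.32 ± 0.19 (SE; adjusted p = 0.00318). How the fall was divided between the 2 genes is uncertain.

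The other Zfp genes around Zfp955a did not pass the test. Within 1 Mb of it the table holds 12 further Zfp genes, of which 11 were tested and Zfp811 was not; apart from Zfp871 they lay under 20 CPM. Zfp871, a KRAB gene with 15 fingers at the far end of the cluster, was the most abundant. It measured 164, 178 and 150 CPM in DMSO and 123, 136 and 117 CPM with forskolin, without overlap, a log2 change of -0.39 ± 0.11 (SE; edgeR adjusted p = 0.134). The neighbours besides Zfp871 and Zfp955b had log2 changes of -0.48 (Zfp799), 0.11 (Zfp870), 0.90 (Zfp472), 0.16 (Zfp952), -0.38 (Zfp763), -0.55 (Zfp563), -0.56 (Zfp81), 0.50 (Zfp101) and 0.13 (Zfp414). Their levels were between 2.63 and 12.5 CPM and their adjusted p-values were between 0.512 and 0.992. Of the 12 tested genes of the cluster, Zfp955a included, 7 were below 0, and Zfp955a alone was called. Whether Zfp955a differed from its neighbours was not tested.

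**Figure D4:**
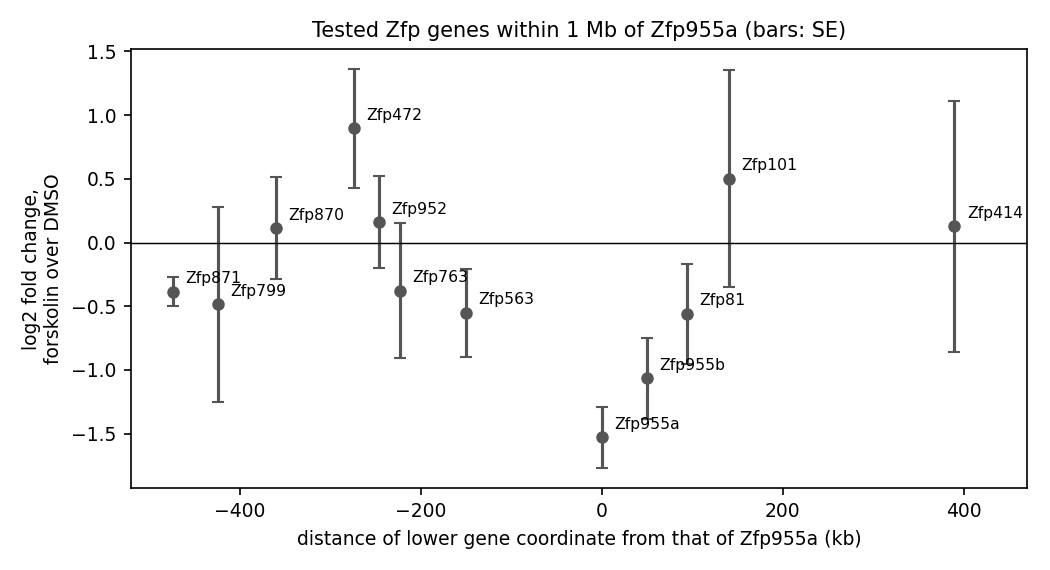
Fitted log2 fold change, forskolin over DMSO (y axis; points are fitted values, bars are SE), of the 12 tested Zfp genes within 1 Mb of Zfp955a, by the distance of each gene's lower coordinate from that of Zfp955a (x axis, kb). Zfp955a at -1.53 and Zfp955b at -1.07 are the lowest, and the others lie between -0.56 and 0.90.

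The other fall was in Zfp608, at chr18:54888045-54990180 (mm10), a large single-finger protein known to hold down recombination-activating genes in thymocytes. It measured 37.6, 42.7 and 38.0 CPM in DMSO and 17.1, 21.6 and 21.4 CPM with forskolin. No forskolin library came near the DMSO range. The means were 39.4 ± 2.86 and 20.01 ± 2.53 CPM (SD, n = 3), a log2 change of -0.99 ± 0.20 (SE; edgeR adjusted p = 0.0238). The size of the change varied little when a library was left out (-1.06 to -0.88), but the call was lost in 4 such fits: the adjusted p was 0.0996 without DMSO A, 0.153 without DMSO B, 0.161 without forskolin A and 0.0882 without forskolin B.

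Zfp609, the paralog of Zfp608, works with the cohesin loader and the Integrator complex in developing neurons. It measured 98.6, 120 and 100 CPM in DMSO and 83.1, 82.2 and 52.9 CPM with forskolin, again without overlap. Its log2 change of -0.53 ± 0.18 (SE) did not pass (edgeR adjusted p = 0.213).

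Zfp280d came closest to a call among the genes that missed it. Its levels were 49.9, 49.2 and 38.0 CPM in DMSO and 21.8, 25.6 and 30.7 CPM with forskolin, so the C libraries lay closest to each other and the groups still did not overlap. The log2 change was -0.84 ± 0.20 (SE; edgeR adjusted p = 0.0623), and 7 of 15 alternatives called it, DESeq2 among them (adjusted p = 0.0221). Its paralogs, named after their values were seen, lay on the same side: Zfp280b at -0.41 (adjusted p = 0.279) and Zfp280c at -0.40 (adjusted p = 0.563), both without overlap between groups. Pseudogenes overlap Zfp280d (Gm19353 and Gm17828).

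Zfp217, an oncogene that works with CtBP corepressors, measured 52.2, 57.7 and 50.8 CPM in DMSO and 23.8, 30.5 and 42.4 CPM with forskolin. Forskolin C was the highest of its group and nearest to DMSO. The log2 change was -0.77 ± 0.22 (SE; edgeR adjusted p = 0.117), and without forskolin C it was -0.98 (adjusted p = 0.0135). Zfp207, known as BuGZ, a spindle assembly protein that loads Bub3, measured 211, 205 and 246 CPM in DMSO and 154, 164 and 183 CPM with forskolin. Here too the groups were separate, and the change of -0.41 ± 0.11 missed the threshold (adjusted p = 0.122; 0.0435 without forskolin C). Zfp236, with 30 fingers, had a log2 change of -0.44 (adjusted p = 0.231) and no overlap.

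On the upper side, Zfp131, a BTB-domain zinc finger gene, had the lowest p after Zfp703. It measured 107, 113 and 127 CPM in DMSO and 149, 144 and 176 CPM with forskolin, with no overlap. Its log2 change was 0.44 ± 0.12 (SE; edgeR adjusted p = 0.114); Gm41077 and Gm46390 overlap it. Of 15 alternatives 2 called it: the replicate block, with the letters A, B and C as a term (0.43, adjusted p = 0.0172), and the fit without both C libraries (0.41, adjusted p = 0.00374). Zfp503, described above, followed, and then Zfp655 at 0.41, Zfp574 at 0.46, Zfp326 at 0.37, Zfp800 at 0.32 and the KRAB gene Zfp954 at 0.31, with adjusted p-values of 0.292 to 0.546. Of these, Zfp655 and Zfp574 overlapped between groups. Zfp574 measured 45.1, 49.8 and 54.2 CPM in DMSO and 73.2, 80.0 and 49.0 CPM with forskolin, so forskolin C fell inside the DMSO range; without that library the change was 0.64 (adjusted p = 0.0353). Zfp326 encodes a subunit of the DBIRD complex, which couples splicing to elongation.

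Of the 8 most abundant members, Zfp703 alone passed the test. After it the most abundant, by unscaled mean CPM, were Zfp106 (295), an RNA-binding protein needed by motor neurons, Zfp91 (261), a ubiquitin ligase of noncanonical NF-kB signalling, Zfp207, Zfp142 (186), Zfp664 (185), Zfp445 (177), a guardian of genomic imprints, and Zfp622 (168), a factor of ribosomal subunit maturation. Their log2 changes, Zfp207 aside, were -0.03, -0.07, 0.01, -0.09, -0.21 and 0.12, and none passed the test. Only Zfp622 among those 6 had groups without overlap: 164, 156 and 164 CPM in DMSO and 178, 165 and 185 CPM with forskolin.

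Members chosen for a known function also mostly missed the threshold. Zfp148 and Zfp281, which bind GC-rich promoters, had log2 changes of -0.01 and -0.28, and Zfp384, known as CIZ, had -0.10. Zfp143, which activates many promoters and takes part in chromatin loops, measured 58.6, 53.6 and 49.5 CPM in DMSO and 41.1, 43.1 and 37.7 CPM with forskolin. Its groups did not overlap, and its change of -0.40 ± 0.15 (SE) did not pass (edgeR adjusted p = 0.296). Zfp292 had -0.37, also without overlap, and Zfp24, needed for myelination, had 0.08. Zfp318, which sets IgM and IgD splicing in B cells, had -0.35 and Zfp706, which promotes the exit of embryonic stem cells from self-renewal, had -0.15. For Zfp598, a ubiquitin ligase that senses collided ribosomes, the change was -0.13. Zfp423 and Zfp521, both on the list of genes of known function, did not reach 20 CPM.

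The retrovirus silencer Zfp809, a KRAB protein that recognises the primer binding site of murine leukaemia viruses, measured 45.2, 39.3 and 49.8 CPM in DMSO and 37.5, 33.6 and 35.8 CPM with forskolin. All DMSO values were above the forskolin values, at a log2 change of -0.32 ± 0.17 (SE; edgeR adjusted p = 0.518).

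Both finger classes had medians below 0. Coding sequences of all 138 genes were found in GENCODE M21 and read in frame for the C2H2 pattern and for a KRAB box. Both patterns matched in 35 genes: 1 was called lower (Zfp955a), 23 were below 0 and the median was -0.11. Fingers without a KRAB match were found in 99 genes: 1 was called lower (Zfp608), 72 were below 0 and the median was -0.14. The KRAB pattern is strict, and Zfp445, known as a KRAB protein, was among those without a match, so the KRAB count is a lower limit. The 4 genes with no finger match were Zfp703, Zfp503, Zfp365 and Zfp330, whose median was 0.43. Without DMSO B the medians were -0.08 for KRAB genes and -0.09 for finger genes without a match. Differences between classes were not tested.

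Finger number varied from 0 to 36, with a median of 9. The median change was -0.16 in the 28 genes with 1 to 4 fingers, -0.10 in the 43 with 5 to 9 and -0.16 in the 63 with 10 or more. Leaving out 1 library moved these to between -0.24 (without forskolin B) and -0.11 for 1 to 4 fingers, between -0.11 and -0.07 for 5 to 9, and between -0.18 and -0.08 (without DMSO B) for 10 or more, so their order is not settled. In the plot of change against finger number the 2 genes at 1 or beyond on the log2 scale sit apart, Zfp703 with no match and Zfp955a with 10 fingers. Within 0.5 of 0 lay 25 of the 28 genes with 1 to 4 fingers, 40 of the 43 with 5 to 9 and 60 of the 63 with 10 or more.

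**Figure D5:**
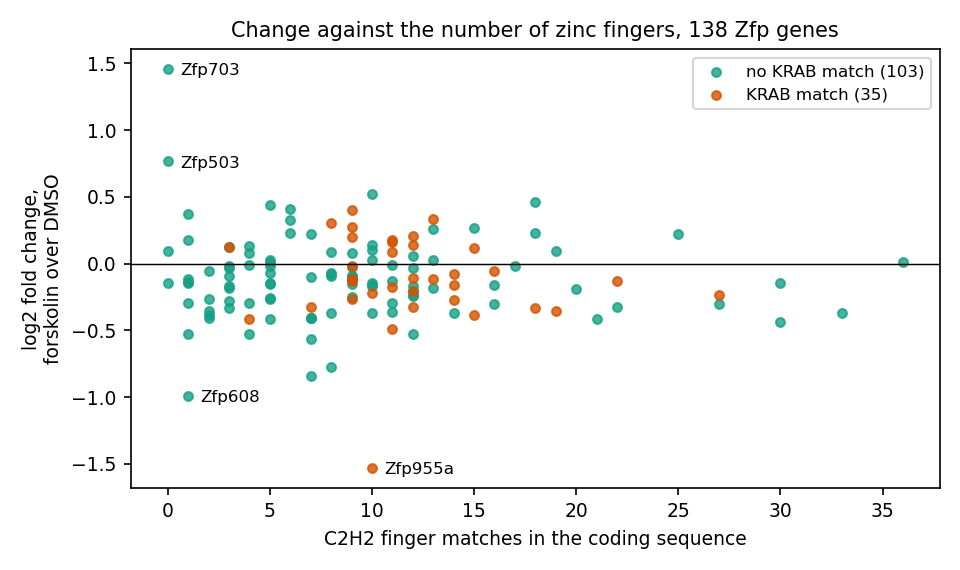
Fitted log2 fold change, forskolin over DMSO (y axis), of the 138 Zfp genes against the number of C2H2 finger matches in the coding sequence (x axis); colours separate the 35 genes with a KRAB match from the 103 without. Medians are -0.16, -0.10 and -0.16 for 1 to 4, 5 to 9 and 10 or more fingers.

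Medians were below 0 on chromosome 7 and elsewhere, and inside clusters and outside them. The genes lay on 20 chromosomes, with 33 on chromosome 7, 12 on 17 and 10 on 6. On chromosome 7, 25 of 33 were below 0, with a median of -0.17 and 0 calls (at an unadjusted p under 0.05, 1 higher and 3 lower); on all others, 71 of 105 were below 0, with a median of -0.11. Without DMSO B both medians were -0.09. Within 1 Mb of another member lay 69 genes, in 21 clusters of up to 8; their median was -0.13, as it was for the 69 that lay alone. Without DMSO B these medians were -0.05 and -0.12. Differences by position were not tested. The cluster of 8 at chr17:21008941-22377281, with Zfp160, Zfp51, Zfp52 and Zfp948 among others, had 4 genes below 0 and a median of -0.06. The cluster of 8 at chr7:127233061-127885996, with Zfp768, Zfp747 and Zfp629, had 6 below 0 and a median of -0.11. These cluster members were named after their values were seen.

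Transcript windows shared with another gene can come from near copies or from overlapping genes. Zfp593, for example, shared 64.5% of its windows with the overlapping noncoding gene E130218I03Rik. More than 10% of the 50-base transcript windows were shared with another gene for 31 members, whose median change was -0.10 (-0.06 without DMSO B); for the other 107 it was -0.13 (-0.09). In RefSeq, 47 of the 138 overlap another gene, though Zfp703, Zfp955a and Zfp608 do not.

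Zfp genes under 20 CPM also lay mostly below 0. Of 245 such genes, 192 were tested and 0 were called by edgeR. At an unadjusted p under 0.05 there were 1 higher and 8 lower; DESeq2 called 0 and limma-voom called 1 in each direction. Below 0 lay 124 of 192 (64.6%), with a median of -0.21 (-0.14 without DMSO A). Among 41 genes of other C2H2 family names (Zbtb, Zscan, Zkscan and the like) of at least 20 CPM, 32 were below 0 (78.0%), with a median of -0.15 (-0.08 without DMSO B). In that list 2 rose (4.88%, beside 2.22% of all tested genes). They were Zhx2 at 1.25 (edgeR adjusted p = 3.34e-04) and Zbtb38, which binds methylated DNA, at 0.67 (edgeR adjusted p = 0.0241). Both were named after their values were seen. By edgeR 0 fell (all genes: 0.572%), with 5 lower at an unadjusted p under 0.05. Called lower were 1 with limma-voom (all genes: 1.07%), 3 with no filter (0.838%), 4 without both C libraries (3.90%) and 0 with DESeq2.

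The machinery that KRAB zinc finger proteins call on was read from a list of 39 partner genes, of which 38 were tested (Atf7ip2 was not). By edgeR 0 fell, with 3 higher and 2 lower at an unadjusted p under 0.05 (all genes: 6.81% and 5.26%). DESeq2 and limma-voom also called 0 lower. Below 0 lay 26 and above it 12, with a median of -0.09 (-0.05 without forskolin C). Without both C libraries 5 were called lower (all genes: 3.90%), with the replicate block 2 (1.59%) and with no filter 1 (0.838%). Trim28, the KRAB corepressor itself, measured 385, 348 and 379 CPM in DMSO and 382, 366 and 431 CPM with forskolin. Its groups overlapped, and its log2 change was 0.08 ± 0.12 (SE). Setdb1 had -0.18, the NuRD subunits Chd4 and Rbbp4 had 0.28 and 0.13, and Atf7ip, the Setdb1 cofactor, had -0.50 (edgeR adjusted p = 0.108). Hdac1, named after its values were seen, had 0.45 (edgeR adjusted p = 0.274). Groups did not overlap for 3 partners higher, Chd4 and Hdac1 among them, and for 5 lower, Atf7ip among them. Those are 7.89% and 13.2%, beside 10.7% and 9.46% of all tested genes. Per length, Trim28 stood at 118 CPM per kb, near Zfp703 at 130.

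Markers checked the cell type. Summed stellate cell markers were at 1277 to 1460 CPM in DMSO and 1308 to 1581 CPM with forskolin (10 of 10 with counts, unscaled), with Reln, Des and Pdgfrb all present. Hepatocyte markers (6 of 6 with counts) summed to 5.45 to 7.77 and 4.70 to 14.3 CPM, endothelial markers (6 of 6) to 2.30 to 9.58 and 5.49 to 6.50, and macrophage markers (6 of 6) to 18.4 to 22.6 and 12.1 to 18.3. Cholangiocyte markers (3 of 4, Krt7 at 0) summed to 6.11 to 19.8 and 8.66 to 38.6 CPM, lymphoid markers (2 of 3, Nkg7 at 0) to 1.18 to 4.13 and 1.85 to 5.41, and portal fibroblast markers (3 of 4, Thy1 at 0) to 8.10 to 30.5 and 13.7 to 35.9. Mesothelial markers (2 of 3, Upk3b at 0) reached at most 1.16 CPM in DMSO and were at 0 with forskolin. Of the stellate markers 1 was called higher with forskolin, Hand2, which measured 61.0, 47.4 and 34.2 CPM in DMSO and 110, 92.1 and 83.9 CPM with forskolin (unscaled), and was named after its values were seen. No marker of another cell type was called. Macrophage sums were all lower with forskolin; their part in the displacement of the Zfp genes was not tested.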

How the data were processed

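The measured unit was the exon count of each gene, in 1 table the authors deposited, unadjusted per its name, with RefSeq transcripts and coordinates. The submitters' processing notes name STAR, HOMER and mm10; the sources used here give no versions, counting rule or annotation release. Its deposited values are expected counts in steps of 0.5 and were rounded to whole numbers. Totals ran from 2770628 to 10607997 counts per library, so 3 counts equal 0.283 to 1.08 CPM (counting error only).

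After filterByExpr and TMM scaling, the 2 groups were compared by the quasi-likelihood test in edgeR 4.0.16 (R 4.3.3), Benjamini-Hochberg adjusted over 12233 genes and called at 0.05. Each SE is the absolute log2 change divided by the square root of F. Alternatives were RLE, upper quartile and no scaling factors, other filters, DESeq2 1.42.0, limma-voom (3.58.1), a replicate block, libraries left out, and membership at 10 or 50 CPM. On simulated counts for 11942 genes, this comparison found 55.2% of those changed 2-fold and 84.2% of those changed 4-fold, and called 9 of 11751 unchanged genes.

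Finger and KRAB patterns were searched in GENCODE M21 coding sequences read in frame, in place of the RefSeq proteins first planned. Promoters are RefSeq's.

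Members and lists were chosen with earlier results of these data known, the fall of Zfp955a among them. Named are Zfp955a, called members, the 8 lowest p in each direction, the 8 most abundant, genes around the threshold and within 1 Mb of Zfp955a, a list of members of known function, and called or abundant partners. The value of 1 partner gene is not reported here.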

Additional observations from a re-analysis of the deposited data

How the results depend on the processing

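Of the 16 genes with the lowest p in either direction, 0 reversed under any alternative. They were picked by p in these same libraries, so this says nothing about the other members. Zfp members called higher and lower numbered 2 and 5 with no filter (all genes: 2.47% and 0.838%), 2 and 4 with limma-voom (3.03% and 1.07%), and 5 and 14 without both C libraries (5.86% and 3.90%); 0 were called lower with membership at 50 CPM. Leaving out 1 library gave 1 to 2 higher and 1 to 5 lower. The median change of members, -0.13, was -0.158 with upper quartile factors, -0.163 with column totals alone, -0.102 with limma-voom, -0.107 without both C libraries, -0.110 with membership at 50 CPM, and -0.143 to -0.0896 with 1 library left out. Partner genes called numbered 2 with no filter and 6 without both C libraries. Over all tested genes the median was 0.00495 in the main fit, -0.0247 with upper quartile factors and -0.0329 with column totals alone. Under these scalings it thus moved down along with the median of members. It was 0.00764 with limma-voom and -0.00501 without both C libraries. The cause of the other differences was not tested. Depth limits single genes most in the C libraries, where a typical member had 138 and 106 counts.

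With the replicate letters as a replicate block, 3 members were called higher and 6 lower (all genes: 3.72% and 1.59%), the median was -0.113 and 3 partners were called. Deviations from the group means of same-lettered libraries correlated across genes at 0.0476 (A), 0.133 (B) and 0.150 (C), and the A libraries did not correlate best with their own letter, so the letters were not taken as a pairing.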
